A study of Mus musculus with 721 samples.

Results

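The 42 genes described here encode the core of the DNA replication machinery, from the proteins that mark and license origins to the enzymes that copy, join and supply the DNA. They were chosen by name and not by a cut on a measured value, but with earlier results of these data known. All 42 were among the 24483 gene rows of a single-cell RNA-seq count table. All 42 also passed the filter on low counts that left 17105 genes to test. The table held 721 wells of wild-type C57Bl/6Babr mouse embryos of embryonic day (E) 3.5, 4.5, 5.5 and 6.5, each well a hand-picked cell (in some wells a doublet seen at picking) amplified by the full-length SMART-seq2 method, and no embryo carried an engineered allele or received an agent as treatment. At E3.5 and E4.5 the outer trophectoderm had been removed by immunosurgery, at E5.5 epiblast and visceral endoderm had been parted by aspiration, and at E6.5 the embryonic part of early streak embryos had been dissociated after the extra-embryonic tissue was cut away. The embryo, named in the sample titles, was taken as the replicate. The titles gave 37 embryo labels, more than the number of embryos the study states, so n counts labels, and a label may not always be a separate embryo. The counts of a class in an embryo were added up where it had at least 3 cells.

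The sums covered 99 E3.5 cells from 10 embryo labels (10 sums), 27 epiblast-like cells of 5 E4.5 embryos (5 sums) and 78 cells like primitive endoderm (PrE) of the same 5 embryos (5 sums). They also covered the E5.5 epiblast-like cells (8 sums), the E6.5 epiblast-like cells from plates named P1 to P3 (9 sums) and 84 from embryos with no plate name (4 sums). At E6.5 there were further 27 endoderm-like cells on the plates (22 of them in 5 sums) and 14 without plate name (12 of them in 3 sums). The 23 primitive streak-like cells came from a single embryo (1 sum). The E5.5 endoderm-like cells gave 1 sum and entered no test. One E3.5 sum pooled 9 cells whose titles held no embryo number, and 2 of the 4 embryos without plate name were titled E6.75 although their stage label read E6.5.

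Replication starts from origins bound by the origin recognition complex (Orc1 to Orc6). In G1, Cdc6 and Cdt1 load the ring of Mcm2 to Mcm7 there, a step called licensing that geminin (Gmnn) blocks by binding Cdt1. In S phase Cdc45, the GINS proteins and Mcm10 turn the ring into an active helicase, replication protein A (Rpa1 to Rpa3) coats the unwound strand, primase and the polymerases copy it on the sliding clamp Pcna set by the Rfc loader, Fen1 and Lig1 join the fragments, and ribonucleotide reductase (Rrm1, Rrm2) and thymidylate synthase (Tyms) supply nucleotides. Cells of the early mouse embryo divide fast and spend much of their cycle in S phase. In a sum over cells, the share of cells in S phase and the transcript level of each such cell cannot be told apart.

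Each cell held 66896 to 3792936 counts, and the groups had a median of 5294 to 8932 genes detected once each was thinned to 200000 counts. Classes were rebuilt by clustering without the members and named by marker genes, the same as those given here. These marker levels thus describe the classes and are no separate check of them. The 25 endoderm genes summed to 20550 to 29830 counts per 1000000 after normalization (CPM) in the E4.5 PrE-like sums. In the epiblast-like ones they summed to 2125 to 5733. On the E6.5 plates they summed to 15040 to 28430 CPM in endoderm-like and 845.7 to 9301 in epiblast-like sums. The 22 primitive streak genes did not set the streak-like sum (2070 CPM) apart from E6.5 plate endoderm (1515 to 3520 CPM), only from the E6.5 epiblast-like sums (105.9 to 978.0 CPM). Of trophoblast markers (11 genes), the summed level was 264.8 to 1812 CPM at E3.5, 128.2 to 437 in the E4.5 classes and 645 to 1865 in E6.5 plate endoderm, with 0 to 4 of the 11 at 0 in all sums of a class, and their part in the results was not tested. Among the E3.5 sums the 5 of plate P8 (3 or 4 cells each) and the 4 of plate P9 (11 to 28 cells each) stood apart, as did the E6.5 embryos with and without a plate name. Values within these sets are given with the comparisons that used E3.5 or E6.5 sums. Doublets made up 7 of 27 epiblast-like and 31 of 78 PrE-like wells among the E4.5 embryos. By a second clustering method (Ward), 20 of the 27 and 73 of the 78 kept their class. The study set aside a small group of E4.5 cells with markers of both lineages, and such cells were not separated here.

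Of the 42 genes, 21 were called in at least 1 of 9 comparisons between groups and 21 in none, where 49.9% of all genes tested were called in at least 1, so the members' share was that of the background. A gene was called when the adjusted p of edgeR's quasi-likelihood test, corrected over all 17105 genes, was at most 0.05, and a gene that was not called is not shown to be unchanged. Mcm2, Rpa2 and Rrm2 were called most often, in 4 comparisons each, and Gmnn, Lig1, Pold1 and Pold2 in 2. The genes called in none were Orc1, Orc2, Orc4, Orc6, Cdc6, Mcm6, Mcm7, Cdc45, Gins1, Gins2, Gins3, Gins4, Prim2, Pole, Pole2, Pold3, Rfc3, Rfc4, Fen1, Rrm1 and Tyms. In 6 of the 9 comparisons some members were called, with at most 13 of 42 in any 1 comparison.

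**Figure D1:**
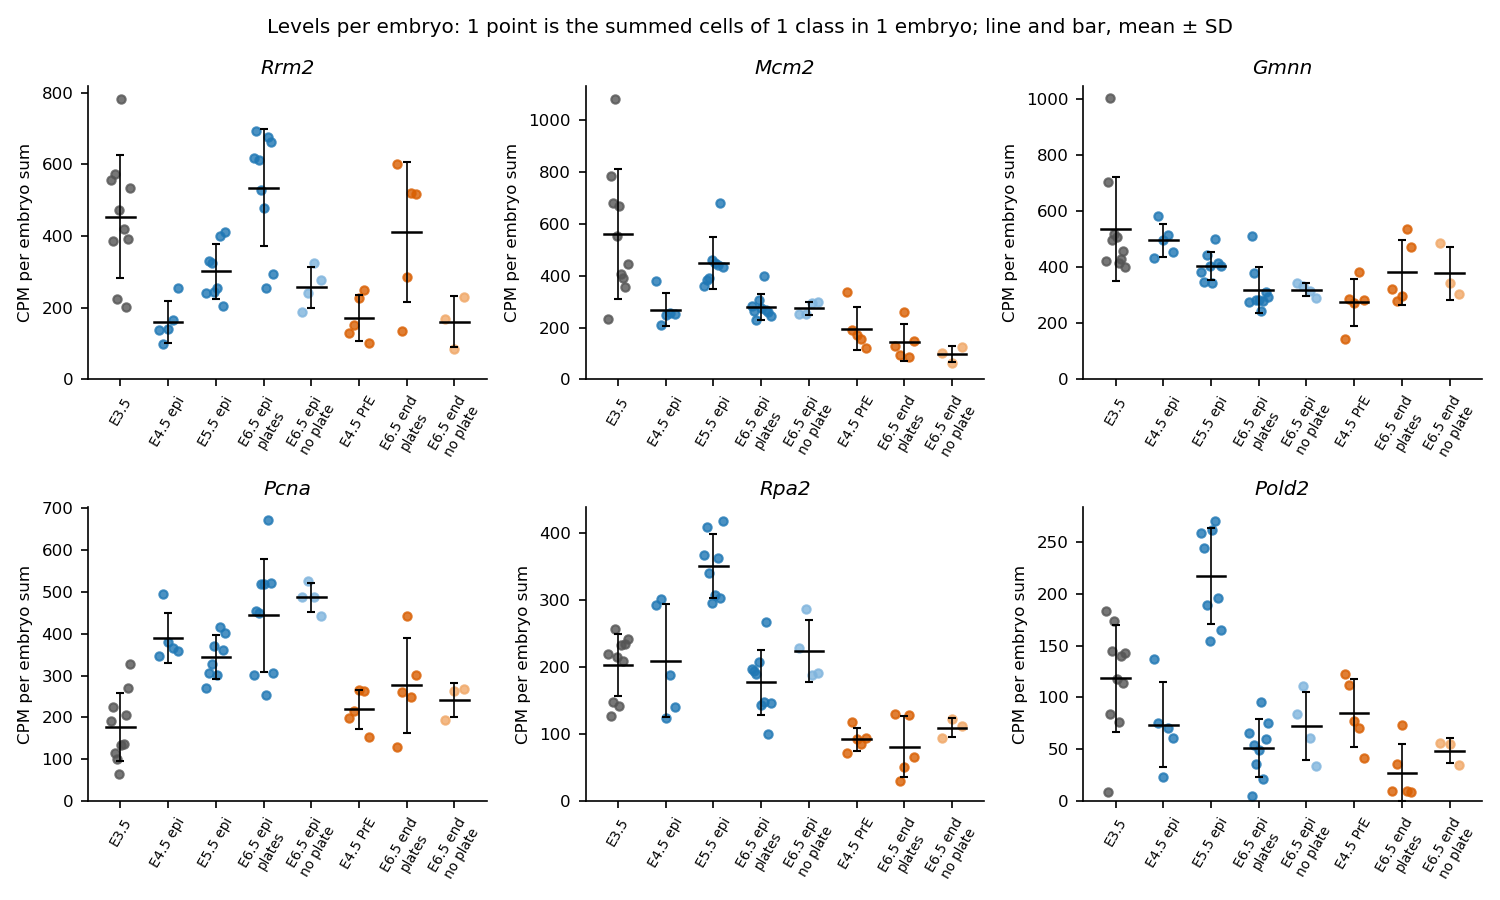
Level of selected replication genes in every sum of a class and embryo, as normalized CPM on a linear axis, with a point for each sum and a line and bar for the mean ± SD over embryos. The E3.5 points of Mcm2 (231.7 to 1081) and Rrm2 (202.1 to 784) lie mostly above the E4.5 points (123.003 to 381 and 98.7 to 255.2).

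**Figure D2:**
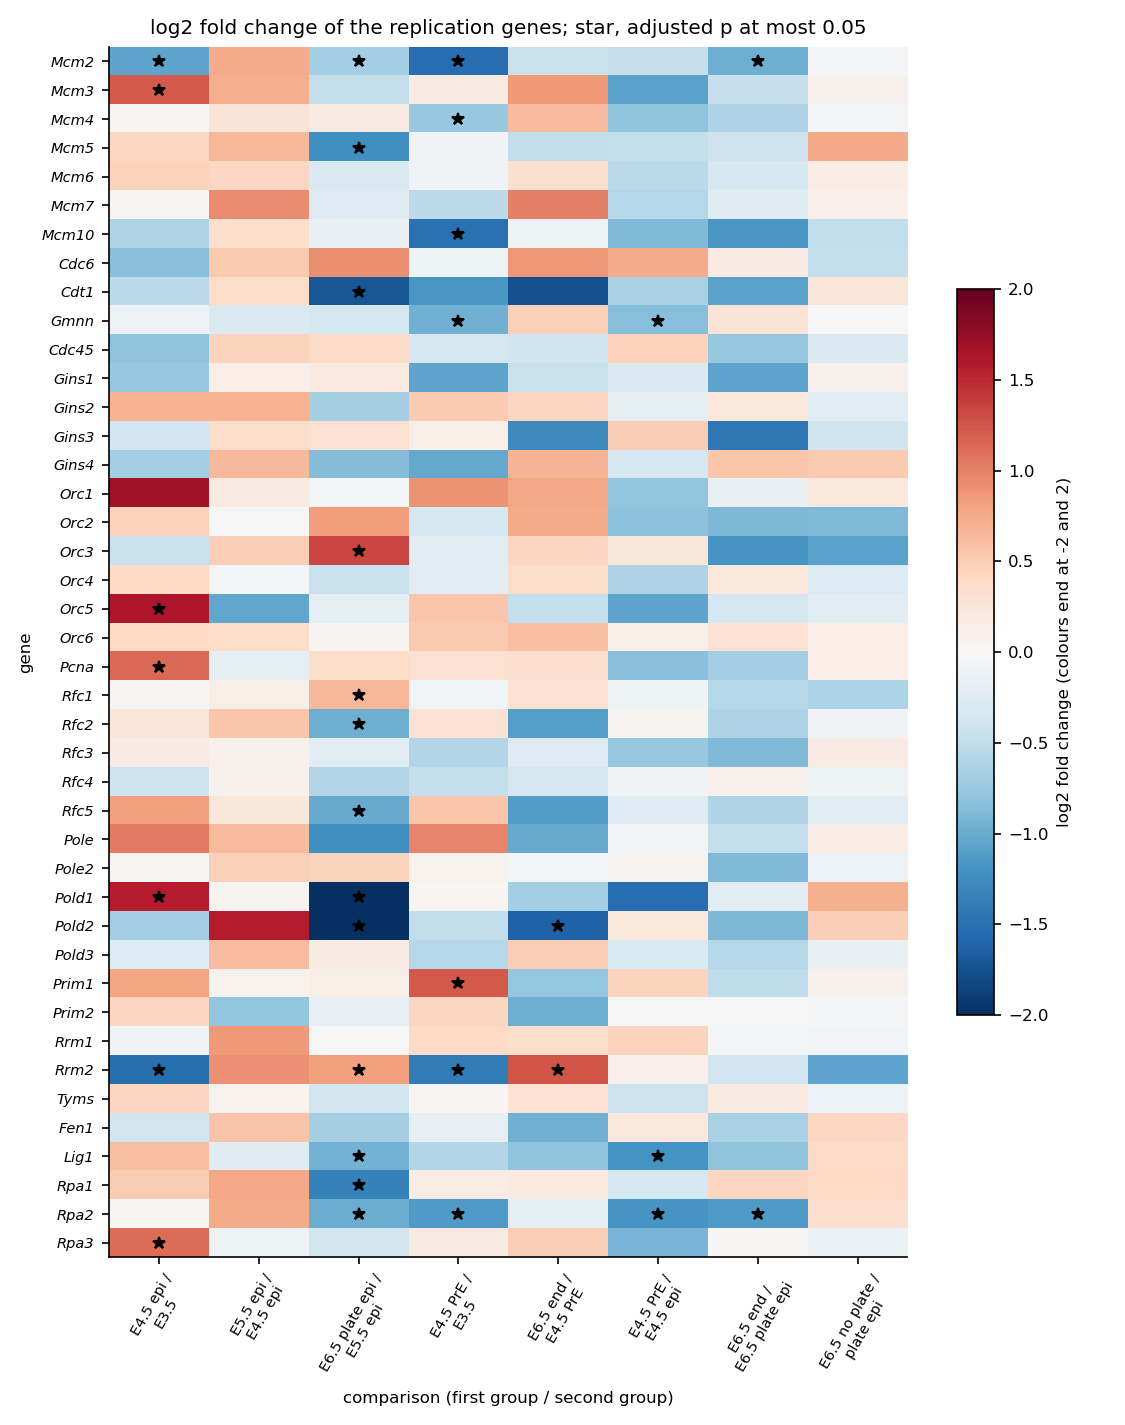
Fitted log2 fold change of each of the 42 genes (rows) in 8 comparisons of groups (columns), red for higher and blue for lower in the first-named group, with a star on called genes. The lowest called values stand in E6.5 plate against E5.5 epiblast (Pold2, -2.08, and Pold1, -2.04).

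From the inner cell mass at E3.5 to the E4.5 epiblast, 5 replication genes rose and 2 fell. Those that rose were the clamp Pcna, Rpa3, Orc5, Mcm3 and the catalytic polymerase delta subunit Pold1. Those that fell were Rrm2, the regulated small subunit of ribonucleotide reductase, and the helicase subunit Mcm2. This was 11.9% of the 42 higher and 4.76% lower, where 13.6% and 6.97% of all genes tested were called higher and lower. Neither share of the members was thus above that of all genes. The members' median log2 change was 0.11 against 0.0 for all genes.

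Rrm2 (GRCm38 chr12:24708241-24714146, plus strand) stood at 202.1, 446 and 784 CPM (lowest, median and highest of 10 sums) at E3.5, and at 138.4, 98.7, 140.3, 165.2 and 255.2 in the 5 E4.5 epiblast sums. Only the highest epiblast value reached into the E3.5 range, and the log2 change was -1.51 (SE 0.32, adjusted p = 0.00039). Pcna (chr2:132249162-132253314, minus strand) had 64.4, 162.9 and 327 CPM at E3.5 against 347, 494, 381, 367 and 359, so every epiblast sum lay above every E3.5 sum (log2 change 1.14, SE 0.25, adjusted p = 0.00067). Mcm2 (chr6:88883474-88898780, minus strand) fell from 231.7, 498 and 1081 CPM to 381, 211.2, 247.7, 255.8 and 251.6. All 5 epiblast values were under the E3.5 median but overlapped its lower end (log2 change -1.05, SE 0.27, adjusted p = 0.0035).

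Rpa3, the smallest subunit of replication protein A, had 44.7, 92.2 and 188.5 CPM at E3.5 and 167.3, 260.2, 168.1, 337 and 140.8 in the E4.5 epiblast. The groups overlapped by the lower 3 epiblast sums (log2 change 1.12, SE 0.27, adjusted p = 0.0017). Orc5 read 19.7, 76.3 and 159.002 CPM at E3.5 and 196.2, 354, 201.9, 149.7 and 276 at E4.5, with 1 epiblast sum inside the E3.5 range (log2 change 1.61, SE 0.48, adjusted p = 0.012). Mcm3 read 8.68, 105.97 and 177.1 CPM against 355, 133.9, 243.1, 225.4 and 247.9, again with 1 epiblast sum inside the range (log2 change 1.23, SE 0.37, adjusted p = 0.014). Pold1 went from 2.55, 81.2 and 145.8 CPM at E3.5 to 156.6 to 309 with no overlap (log2 change 1.56, SE 0.51, adjusted p = 0.024). Cdt1 (-0.52, adjusted p = 0.66) and Gmnn (-0.11, adjusted p = 0.82), the loader and its inhibitor, were not called.

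The count of calls changed with the E3.5 plate used, a difference that was not itself tested. Against plate P8 alone 10 members were higher and 2 lower, with 2187 of 16812 genes higher and 1024 (6.09%) lower. Against plate P9 alone 1 was lower, Rrm2 (-1.27, adjusted p = 0.015), and 1 higher, Rpa3 (0.97, adjusted p = 0.032), with 4.28% and 5.9% of all genes. Against P9 the Mcm2 change was -0.56 (adjusted p = 0.16) and the Pcna change 0.74 (adjusted p = 0.072). Orc5 (1.12, adjusted p = 0.23), Mcm3 (0.82, adjusted p = 0.17) and Pold1 (1.22, adjusted p = 0.17) kept their direction against P9 and were not called. With sums of at least 5 cells only, which drops the P8 embryos and 2 of the 5 E4.5 epiblast sums at once, Mcm2 moved to -0.29 (adjusted p = 0.56). The calls of Mcm3 and Pold1 each rested on an epiblast sum: without plate P1 embryo 1 Mcm3 had an adjusted p of 0.063, and without plate P2 embryo 4 Pold1 had 0.065.

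In the PrE-like cells of E4.5, 6 replication genes were lower than at E3.5 and 1 was higher. The lower ones were Mcm2, Rrm2, Gmnn, Rpa2 (the phosphorylated middle subunit of replication protein A), Mcm10 and Mcm4, and the higher one was Prim1, the catalytic primase subunit. They were 14.3% of the members in the lower direction against 5.47% of all genes, and 2.38% in the higher direction against 13.6%, with a median log2 change of -0.08 for members and 0.09 for all genes.

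Mcm2 read 338, 189.3, 171.1, 156.8 and 123.003 CPM in the 5 PrE-like sums, so 4 of 5 lay under the lowest E3.5 sum (log2 change -1.52, SE 0.28, adjusted p = 5.06e-05). Rrm2 read 128.4, 151.7, 227.6, 248.5 and 101.7 CPM, with 2 sums inside the E3.5 range (log2 change -1.40, SE 0.31, adjusted p = 0.00094). Gmnn (chr13:24751845-24761923, minus strand) had 399, 478 and 1002 CPM at E3.5 and 145.3, 288, 273, 383 and 282 in PrE-like sums. These Gmnn groups did not overlap (log2 change -0.96, SE 0.22, adjusted p = 0.00099). Rpa2 (chr4:132768332-132778752, plus strand) did not overlap either, with 126.8, 216.6 and 256.4 CPM at E3.5 and 71.4, 118.2, 91.6, 84.2 and 94.1 in PrE (log2 change -1.14, SE 0.27, adjusted p = 0.0019).

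Prim1 rose from 22.7, 77.5 and 173.7 CPM at E3.5 to 171.4, 252.4, 123.5, 245.6 and 180.1, where 2 PrE-like sums were inside the E3.5 range (log2 change 1.23, SE 0.31, adjusted p = 0.0039). Mcm10 (-1.49, SE 0.44, adjusted p = 0.013) and Mcm4 (-0.76, SE 0.28, adjusted p = 0.044) were the weaker calls. Mcm10 was no longer called without plate P2 embryo 5 (adjusted p = 0.054), and Mcm4 without any 1 of the 5 PrE-like sums (adjusted p 0.055 to 0.14). Cdt1 (-1.17, adjusted p = 0.21) and Pcna (0.31, adjusted p = 0.45) were not called. Against plate P9 alone 4 members were called (Mcm10, Rpa2, Mcm2 and Rrm2), with 8.37% of all genes, and Gmnn was at -0.63 (adjusted p = 0.077), Prim1 at 0.97 (adjusted p = 0.059) and Mcm4 at -0.80 (adjusted p = 0.094). Mcm2 and Rrm2 were thus lower in both E4.5 classes, which were compared with the same E3.5 sums.

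Within the 5 E4.5 embryos, the PrE-like cells were compared with the epiblast-like cells. In the fit over all groups Rpa2, Gmnn and the ligase Lig1 were lower and no member was higher. That is 7.14% of the members lower against 2.31% of all genes, and 0 higher against 3.37% of all genes. The median log2 difference was -0.35 over the members (29 of 42 below 0) and 0.02 over all genes.

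Rpa2 read 293, 302, 123.5, 187.2 and 140.8 CPM in the epiblast-like sums of embryos 1 to 5 and 71.4, 118.2, 91.6, 84.2 and 94.1 in their PrE-like sums. The PrE value was the lower one in each embryo and the groups did not overlap (log2 difference -1.19, SE 0.30, adjusted p = 0.011). Gmnn read 433, 581, 495.5, 515 and 453 CPM in epiblast against 145.3, 288, 273, 383 and 282, with no overlap (log2 difference -0.85, SE 0.24, adjusted p = 0.025). Lig1 read 223.6, 257.4, 181.8, 225.6 and 230.5 CPM in epiblast against 110.1, 131.7, 84.3, 98.5 and 65.1, also with no overlap (log2 difference -1.19, SE 0.38, adjusted p = 0.048). The Pcna groups did not overlap either, at 347 to 494 against 152.6 to 265.8 CPM, but its difference of -0.83 had an adjusted p of 0.082, and that of Cdt1 was -0.65 (adjusted p = 0.68).

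Since both classes came from the same embryos, the difference was also fitted with the embryo as a block. The block called 8 members, all lower in PrE, against 5.98% of all genes lower: Pold1 (-1.62, adjusted p = 0.0010), Lig1 (-1.29, adjusted p = 0.0041), Gmnn (-0.97, adjusted p = 0.0070), Pcna (-0.91, adjusted p = 0.0089), Mcm3 (-1.10, adjusted p = 0.013), Orc5 (-1.13, adjusted p = 0.015), Rpa2 (-1.17, adjusted p = 0.016) and Rpa3 (-0.98, adjusted p = 0.024). By direction alone, 12 members (28.6%) were lower in PrE in 5 of 5 embryos and 0 were higher in all 5, while 7.66% and 13.2% of all genes tested did so. The 12 were Mcm2, Mcm3, Mcm5, Mcm6, Gmnn, Orc5, Pcna, Rfc3, Pold1, Lig1, Rpa2 and Rpa3. Sums that did not overlap between the classes were found for 7 members, or 16.7%, against 10.7% of all genes.

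The following refits, without single sums, by plate or with other classes, used the fit over all groups, which did not pair the classes by embryo. The fit with the embryo as a block was not repeated in these ways. With 5 embryos the calls of that unpaired fit were easily lost. Leaving out any 1 of 9 of the 10 sums took the adjusted p of Lig1 above 0.05 (0.057 to 0.12), and leaving out the epiblast-like sum of plate P1 embryo 2 did so for Rpa2 (0.0504). Gmnn was lost without any of 4 sums, the epiblast-like ones of plate P1 embryo 2 and plate P2 embryo 4 and the PrE-like ones of plate P1 embryo 1 and plate P2 embryo 5 (adjusted p 0.0501 to 0.10). No member was called within plate P1 alone (2 embryos) or plate P2 alone (3 embryos), where Rpa2 was -1.60 and -0.76, Lig1 -0.94 and -1.38, and Gmnn -1.17 and -0.66, nor with classes from Ward clustering.

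**Figure D3:**
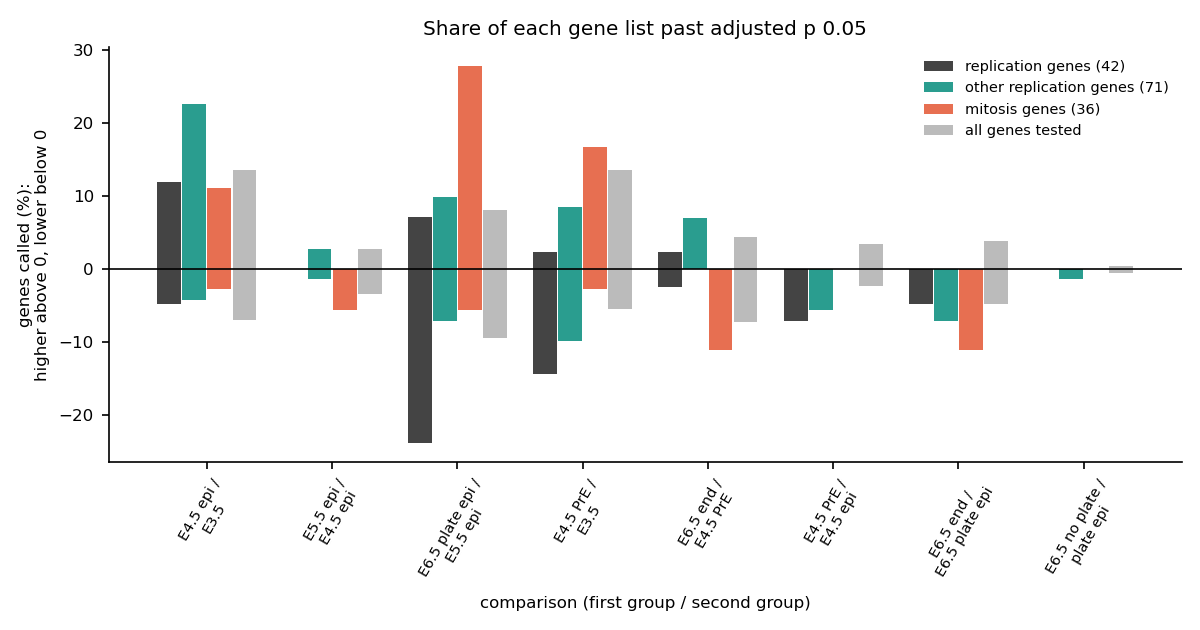
Percent of the 42 replication genes, of 71 further replication genes, of 36 mitosis genes and of all tested genes called higher (above 0) and lower (below 0) in 8 comparisons of groups. In E6.5 plate against E5.5 epiblast 23.8% of the 42 genes are lower, against 9.36% of all genes.

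The 6 MCM subunits form 1 ring in equal numbers, and their transcripts were compared per length of the longest principal transcript. At E3.5 Mcm2 had a mean of 166.1 CPM per kb while Mcm3 to Mcm7 had 33.9 to 64.4. Its share of the 6 per-kb levels was 15.02% to 61.03% over the E3.5 sums (median 40.3%), and at most 26.2% in each sum of the other classes, whose medians were 8.51% to 19.03%. The share was 48.998% to 61.03% in the 5 sums of plate P8, 21.3% to 31.5% in the 4 of plate P9 and 15.02% in the unnumbered sum, so the highest values belonged to the plate with 3 or 4 cells per sum. The Mcm5 share had a median of 18.8% in E5.5 epiblast, 9.85% in E6.5 plate epiblast and 16.3% in E6.5 epiblast without plate name. These shares were chosen after their values were seen and were not tested.

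**Figure D4:**
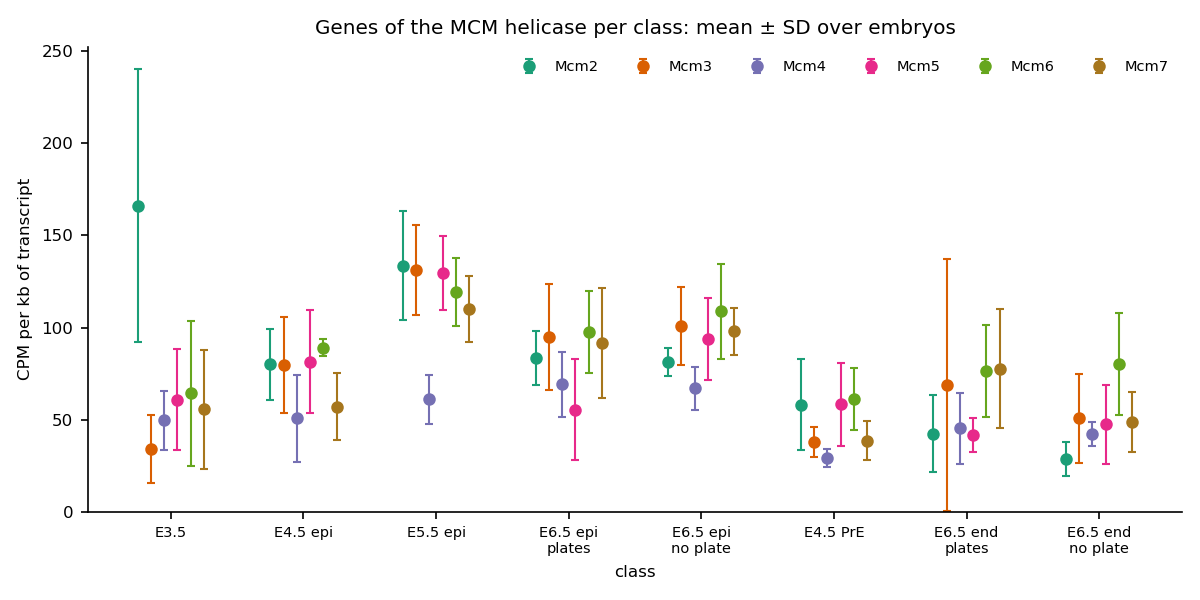
Level of each of Mcm2 to Mcm7 in each class, in CPM per kb of transcript, with points for the mean over embryos and bars for the SD. At E3.5 the Mcm2 mean of 166.1 stands above those of Mcm3 to Mcm7, which lie between 33.9 and 64.4.

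E2F factors, the main regulators of S phase genes, bind short GC-rich sequences in promoters. Of the 42 genes, 34 matched an entry in the RefSeq promoter table (GRCm38.p6). In the 250 bases before the start, TTTGGCGC, TTTCCCGC, TTTCGCGC or TTTGCCGC was found on either strand for 8 of the 34 genes (23.5%). Since some genes have several promoters, the shares are compared per promoter: 8 of the 42 promoters of these genes (19.05%) held it, against 1.86% of 32851 promoters. The 8 were Cdc6, Gins3, Mcm5, Mcm6, Mcm7, Orc1, Orc3 and Rfc3. The letters CCAAT, also searched on both strands, were found in 23 of the 42 promoters (54.76%, against 33.85% of all promoters) and TTTGAA in 5 (11.9%, against 15.99%). Mcm5, Mcm6, Mcm7 and the licensing gene Cdc6 are shown with Orc3, which was called higher at E6.5, as 30 bases in the direction of the gene with the E2F letters in capitals (GCGGGAAA is TTTCCCGC read on the other strand).
Mcm5, chr8:75109345-75109374, plus strand: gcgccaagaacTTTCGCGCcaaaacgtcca
Mcm6, chr1:128359734-128359763, minus strand: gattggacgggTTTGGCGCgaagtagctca
Mcm7, chr5:138172030-138172059, minus strand: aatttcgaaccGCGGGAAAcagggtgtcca
Cdc6, chr11:98908002-98908031, plus strand: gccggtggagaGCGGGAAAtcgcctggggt
Orc3, chr4:34614965-34614994, minus strand: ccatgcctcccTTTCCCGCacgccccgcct
The start used was that of the RefSeq entry. By the GENCODE gene positions given elsewhere here, the Cdc6 and Mcm7 windows lie inside the gene. Of these 5, Mcm5 and Orc3 were called in a comparison and Mcm6, Mcm7 and Cdc6 in none. The promoters of Rrm2, Mcm2 and Pcna held none of the 4 E2F words in this window.

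Across implantation, from E4.5 to E5.5 epiblast, no member was called in the fit over all groups, where 6.17% of all genes were. An unadjusted p under 0.05 was found for 8 members (19.05%), against 22.05% of all genes. The median log2 change was 0.37 over the members (34 of 42 above 0) and 0.22 over all genes. Pold2, the accessory subunit of polymerase delta (chr11:5872180-5878292, minus strand), read 136.9, 75.6, 22.8, 70.9 and 61.1 CPM at E4.5 and 154.7, 220.3 and 270.0 at E5.5. These groups did not overlap, and the log2 change was 1.57 (SE 0.52, adjusted p = 0.056). Rrm2 went from 98.7 to 255.2 CPM at E4.5 to 203.9, 290.5 and 412 at E5.5, with overlap (log2 change 0.92, SE 0.31, adjusted p = 0.067). Cdt1 (0.37, adjusted p = 0.82), Gmnn (-0.29, adjusted p = 0.45) and Pcna (-0.18, adjusted p = 0.78) were not called.

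The count changed with the sums that entered the fit. A fit to these 2 groups alone, which kept 12182 genes to test, called 11 members. Higher at E5.5 were 10, against 13.4% of all genes: Pold2 (1.54, adjusted p = 0.0017), Mcm7 (0.92, 0.0030), Rrm1 (0.82, 0.0062), Mcm2 (0.72, 0.0073), Rpa1 (0.75, 0.0078), Rrm2 (0.89, 0.0099), Mcm3 (0.70, 0.017), Rpa2 (0.72, 0.020), Mcm5 (0.65, 0.026) and Mcm6 (0.40, 0.046), each with its log2 change and adjusted p. Orc5 was lower (-1.05, adjusted p = 0.0043), against 8.46% of all genes. Of the 6 MCM subunits, 5 were thus called higher in that fit and none in the fit over all groups.

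From E5.5 to the E6.5 epiblast of plates P1 to P3, 10 replication genes fell and 3 rose, the highest count of any comparison. The genes that fell were the polymerase delta subunits Pold1 and Pold2, the helicase subunits Mcm2 and Mcm5, Rpa1 and Rpa2, the clamp loader subunits Rfc2 and Rfc5, Lig1 and the licensing factor Cdt1. Those that rose were Rrm2, Orc3 and Rfc1, the large loader subunit. In the lower direction this was 23.8% of the members against 9.36% of all genes, in the higher direction 7.14% against 8.05%, and the median log2 change was -0.28 for members (28 of 42 below 0) and -0.06 for all genes. Markers of other cell types moved with this comparison: endoderm markers summed to 659.2 to 936.9 CPM at E5.5 and 845.7 to 9301 on the E6.5 plates, and trophoblast markers to 217.4 to 377.6 and 66.81 to 1820 CPM. Their part in the result was not tested.

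Pold2 stood at 154.7, 220.3 and 270.0 CPM over 8 E5.5 sums and 5.00, 53.8 and 96.02 over 9 E6.5 sums, with no overlap (log2 change -2.08, SE 0.43, adjusted p = 0.00051). Mcm5 fell from 368, 412 and 570.1 CPM to 78.3, 170.5 and 332, also with no overlap (log2 change -1.22, SE 0.28, adjusted p = 0.0018). Rpa2 fell from 295, 351 and 418 CPM to 100.1, 189.1 and 266.5, with no overlap (log2 change -0.99, SE 0.23, adjusted p = 0.0021). Pold1 fell from 159.2, 224.5 and 313 CPM to 19.6, 45.1 and 104.6 and Rpa1 did not overlap either, so 5 members (11.9%) had separate groups, as did 4.57% of all genes. The change of Pold1 was -2.04 (SE 0.48, adjusted p = 0.0029) and that of Rpa1 -1.36 (adjusted p = 0.022).

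Cdt1 fell from 74.2, 126.04 and 157.7 CPM to 7.49, 19.4 and 76.3, where the highest E6.5 sum reached the lowest E5.5 sum (log2 change -1.71, SE 0.56, adjusted p = 0.028). Its inhibitor Gmnn was not called (-0.35, adjusted p = 0.19), nor was Pcna (0.37, adjusted p = 0.28). The further called decreases were those of Rfc5 (-1.01, adjusted p = 0.019), Lig1 (-0.94, adjusted p = 0.021), Rfc2 (-0.97, adjusted p = 0.025) and Mcm2 (-0.68, adjusted p = 0.032).

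Rrm2 rose from 203.9, 290.5 and 412 CPM to 254.9, 611 and 694, with overlap (log2 change 0.83, SE 0.26, adjusted p = 0.025). Rfc1 rose from 138.2, 154.01 and 182.2 CPM to 142.7, 237.9 and 420.2 (log2 change 0.67, SE 0.23, adjusted p = 0.039). Orc3 read 50.6, 104.5 and 176.3 CPM at E5.5 and 48.1, 158.3 and 1210 at E6.5 (log2 change 1.33, SE 0.42, adjusted p = 0.025). That highest Orc3 value belonged to plate P3 embryo 9, where 1 of 7 cells held 88.9% of 6277 counts, and without this sum the change was 0.47 (adjusted p = 0.37).

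The comparison was repeated with the E6.5 embryos that had no plate name. With those 4 sums in place of the plate sums no member was called, and of all genes 1.0% were called higher and 0.468% lower. The log2 change from E5.5 was then -1.59 for Pold2 (adjusted p = 0.18), -1.33 for Pold1 (0.39), -1.47 for Cdt1 (0.43), -0.65 for Rpa2 (0.36), -0.46 for Mcm5 (0.72), -0.96 for Rpa1 (0.52) and -0.55 for Lig1 (0.62), each a smaller decrease than with the plates. It was -1.23 for Rfc5 (0.13), -1.05 for Rfc2 (0.24) and -0.72 for Mcm2 (0.30), each a larger one, so all 10 genes kept their direction. Of the genes that rose, Orc3 was at 0.26 (0.98), Rfc1 at 0.04 (1.0) and Rrm2 at -0.23 (0.93). The fitted Rrm2 change thus turned direction between the sets of E6.5 embryos, with 187.9 to 324 CPM in the sums without plate name and 254.9 to 694 on the plates. Pold2 read 33.7 to 111.2 CPM, Pold1 83.2 to 102.5 and Rpa2 188.1 to 287 without plate name, all under the E5.5 range, while Mcm5 at 247.9 to 425 overlapped it.

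A direct comparison of the E6.5 epiblast sets called no member, where 0.953% of all genes were called. Of the members, 3 (7.14%) had an unadjusted p under 0.05, against 13.8% of all genes. Rrm2 read 187.9, 241.5, 324 and 277 CPM without plate name and 254.9, 611 and 694 on the plates, with overlap (log2 difference -1.06, SE 0.34, adjusted p = 0.12). Mcm5 read 302, 425, 247.9 and 297 CPM against 78.3, 170.5 and 332, also with overlap (log2 difference 0.76, SE 0.33, adjusted p = 0.29). Pcna (0.13, adjusted p = 0.97), Cdt1 (0.24, adjusted p = 1.0) and Gmnn (0.01, adjusted p = 1.0) were not called. The first 2 of the values given for Rrm2 and Mcm5 without plate name are those of the embryos titled E6.5, as on the plates, and the last 2 those titled E6.75, so titled age differs between the sets only in part.

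All cells like primitive streak belonged to 1 embryo, which also gave 1 of the 4 epiblast-like sums they were compared with, and the streak sum was assumed to vary like the others. No member was called, nor was any gene (0.0%, with 275 at an unadjusted p under 0.05 and 47 called by DESeq2, none of them a member). With 1 sum in an arm this does not show that the levels were alike, and the values are given as a description. Prim1 read 85.9 CPM in the streak sum and 132.2, 218.1, 180.02 and 157.9 in the epiblast (log2 difference -1.0, SE 0.71, adjusted p = 1.0). Gmnn was 226.6 CPM against 288 to 344 (-0.50), Pcna 319 against 444 to 527 (-0.61) and Cdt1 81.4 against 21.7 to 67.5 (0.90), each with an adjusted p of 1.0. The median difference was -0.07 over the members and 0.0 over all genes.

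Along the endoderm, from PrE-like cells at E4.5 to endoderm-like cells on the E6.5 plates, Rrm2 rose and Pold2 fell. This was 2.38% of the members in each direction, with 4.45% of all genes higher and 7.23% lower, and the medians were 0.09 for members and -0.22 for all genes. Rrm2 went from 128.4, 151.7, 227.6, 248.5 and 101.7 CPM to 602, 134.2, 284, 519 and 516, where 4 of 5 E6.5 sums lay above every E4.5 sum (log2 change 1.26, SE 0.34, adjusted p = 0.012). Pold2 went from 122.9, 111.7, 76.8, 70.4 and 41.8 CPM to 10.004, 35.7, 72.99, 9.67 and 8.84, with 1 E6.5 sum inside the E4.5 range (log2 change -1.62, SE 0.56, adjusted p = 0.047). In the 3 E6.5 endoderm-like sums without plate name Rrm2 read 168.9, 85.8 and 229.8 CPM, all inside or below the E4.5 range, and Pold2 55.9, 55.3 and 34.7.

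The call of Pold2 was lost when any of 8 of the 10 sums was left out (adjusted p 0.055 to 0.11), each time with a change between -1.69 and -1.41. Cdt1 read 46.4 to 78.2 CPM at E4.5 and 22.6, 0.0, 0.24, 8.24 and 56.8 at E6.5, a change of -1.75 that was not called (adjusted p = 0.10). Gmnn (0.48, adjusted p = 0.17) and Pcna (0.34, adjusted p = 0.49) were not called.

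Within the E6.5 plate embryos, Rpa2 and Mcm2 were lower in endoderm-like than in epiblast-like sums and no member was higher. This was 4.76% of the members against 4.82% of all genes lower, and 0 against 3.79% higher, so the called share was near that of all genes. The median was -0.49 for the members (32 of 42 below 0) and -0.25 for all genes. Rpa2 read 129.2, 29.7, 50.05, 127.8 and 66.03 CPM in endoderm and 100.1, 189.1 and 266.5 in epiblast, with 2 endoderm sums inside the epiblast range (log2 difference -1.14, SE 0.27, adjusted p = 0.0079). Mcm2 read 127.003, 93.6, 260.97, 87.003 and 146.9 CPM against 229.3, 269 and 401, with 1 endoderm sum inside that range (log2 difference -0.97, SE 0.27, adjusted p = 0.020). Between the sums without plate name Mcm2 was the 1 member called (-1.51, adjusted p = 0.045, with 0.199% of all genes lower), and Rpa2 was at -1.03 (adjusted p = 0.21).

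Pcna (-0.68, adjusted p = 0.091), Cdt1 (-1.07, adjusted p = 0.28) and Gmnn (0.26, adjusted p = 0.43) were not called. With the embryo as a block over the 5 embryos that held both classes, no member was called, and 0.334% of all genes were called lower (Mcm2 -1.11, adjusted p = 0.12, and Rpa2 -1.19, adjusted p = 0.25). Mcm2, Orc2, Lig1 and Rpa2 were lower in 5 of 5 embryos (9.52% of members against 6.03% of all genes) and 0 were higher in all 5 (3.47% of all genes). The Mcm2 call was lost without the endoderm-like sum of plate P2 embryo 5 (adjusted p = 0.070) or plate P3 embryo 7 (0.054).

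Gmnn was the single member whose difference between endoderm and epiblast itself differed between E4.5 and E6.5, where 3.93% of all genes did. It was lower in PrE at E4.5 (-0.85) and read 321, 279.5, 299, 536 and 473 CPM in E6.5 plate endoderm against 243.9, 284 and 511 in epiblast. The difference of the differences was 1.12 (SE 0.32, adjusted p = 0.037). It was lost without any of 10 of the 15 single sums left out in turn (adjusted p 0.0502 to 0.090), with a value between 0.94 and 1.13. The call also ended with no filter on low counts (1.08, adjusted p = 0.055), at least 5 cells per sum (1.11, adjusted p = 0.067), the groups compared alone (1.18, adjusted p = 0.070) and Ward classes (0.44, adjusted p = 0.63). For Cdt1 (-0.42) and Pcna (0.15) the adjusted p was 1.0.

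The mean level of the 42 genes per cell, taken as log2(CPM + 1) and averaged per embryo, was 5.56 ± 0.56 (SD, n = 10) at E3.5, 6.34 ± 0.10 (n = 5) in E4.5 epiblast and 5.72 ± 0.34 (n = 5) in PrE. It was 6.62 ± 0.15 (n = 8) at E5.5. On the E6.5 plates it was 5.60 ± 0.33 (n = 9) in epiblast and 5.29 ± 0.27 (n = 5) in endoderm, and without plate name 6.72 ± 0.17 (n = 4) and 6.21 ± 0.26 (n = 3), with 6.89 in the streak sum. It was lower in PrE than in epiblast in 5 of 5 E4.5 embryos, by 0.23 to 1.05. At E3.5 the P8 sums spanned 4.74 to 5.61 and the P9 sums 5.62 to 6.35.

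Genes detected per cell also differed between the groups, and their part in this mean was not tested. The medians at 200000 counts were 5913 at E3.5, 6424 in E4.5 epiblast, 6029 at E5.5, 5294 on the E6.5 plates and 7468 in epiblast without plate name. The mean level over all tested genes was 2.039 at E3.5, 2.165 at E5.5, 1.925 in E6.5 plate epiblast and 2.555 in epiblast without plate name. In E6.5 endoderm it was 2.034 on the plates and 2.559 without plate name. From E5.5 it was thus lower on the plates and higher without plate name, as was the mean of the members. Between the E4.5 classes, PrE-like cells had more genes detected (6790), a higher mean level over all tested genes (2.36 against 2.22) and the lower mean over the members. Taken as a sum over the 42 genes, the level was 8710 ± 635 CPM at E5.5, 7168 ± 532 on the E6.5 plates and 6849 ± 292 without plate name, an order that differs from that of the mean log level.

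**Figure D5:**
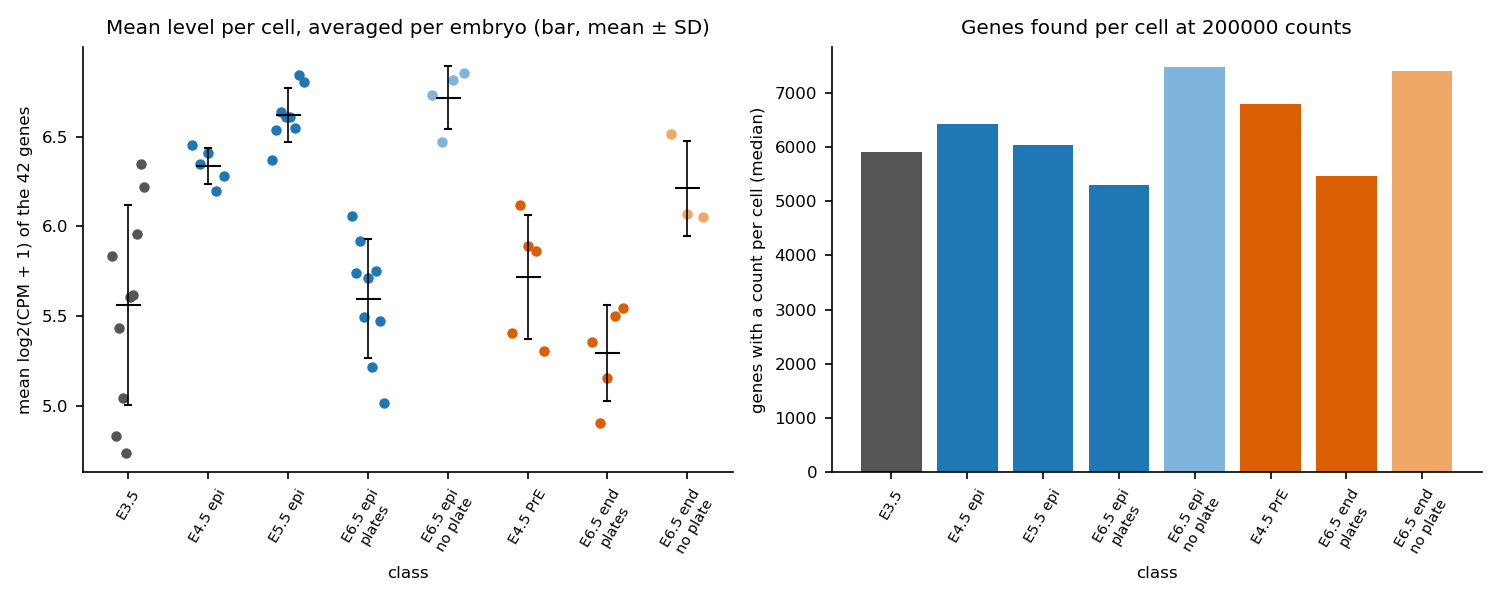
Left, mean log2(CPM + 1) over the 42 genes for every embryo and class, with the mean ± SD of each class, and right, the median number of genes with a count per cell thinned to 200000 counts. The E6.5 plate embryos average 5.60 in epiblast and the embryos without plate name 6.72.

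From cell to cell within a class the genes moved together only weakly. The median Spearman's rho between pairs of members, over single wells thinned to equal counts and centred within each embryo, was 0.033 at E3.5 (86 cells), 0.067 in PrE (47 cells), 0.035 at E5.5 (190 cells), 0.030 on the E6.5 plates (96 cells) and 0.041 without plate name (72 cells). Between members and mitosis genes it was -0.022 to 0.0053, and among mitosis genes 0.046 to 0.18. Mcm5 and Mcm6 had a rho of 0.019 at E3.5 and of 0.22 to 0.46 in the later classes, but other MCM pairs did not differ in this way. Mcm2 with Mcm3 had 0.215 at E3.5 and -0.0225 to 0.29 later, and Mcm3 with Mcm5 had 0.211 at E3.5 and 0.122 to 0.531 later. The highest E3.5 pair was Mcm2 with Mcm7 (0.406). In PrE the highest pairs were Rfc1 with Rpa3 (0.56), Mcm6 with Pcna (0.54) and Mcm3 with Mcm5 (0.53), and Cdt1 with Gmnn had -0.13 to 0.054 over the classes. Cells of a class shared plates.

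Further genes of the pathway, a list of 71 tested regulators, accessory factors and repair genes, had 16 called higher (22.5%, against 13.6% of all genes) and 3 lower (4.23%, against 6.97%) from E3.5 to E4.5 epiblast. Among them were Ccne2 (3.31 on the log2 scale), Rif1 (1.51) and E2f7 (5.30), where Ccne2 is an S phase cyclin and Rif1 a timing factor. In PrE against E3.5 there were 6 higher (8.45%, against 13.6% of all genes) and 7 lower (9.86%, against 5.47%), among them E2f7 (5.66), E2f3 (2.98) and Msh6 (-1.86). In PrE against epiblast 0 were higher and 4 lower (5.63%, against 2.31% of all genes), among them Rif1 (-2.54), Msh6 (-2.17) and Nasp (-1.05). From E4.5 to E5.5 epiblast 2 rose (Top1, 1.13, and Ssrp1, 0.91) and 1 fell (Rif1, -1.30). This was 2.82% higher and 1.41% lower, against 2.77% and 3.4% of all genes.

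On the E6.5 plates against E5.5, 7 of this list were higher (9.86%, against 8.05% of all genes) and 5 lower (7.04%, against 9.36%), among them Mcmbp (1.32), Nasp (0.89), Top1 (0.79) and Chtf18 (-2.24). E6.5 endoderm against PrE had 5 higher (7.04%, against 4.45% of all genes) and 0 lower (against 7.23%). Among them were Nasp (1.48), Top1 (1.53) and Rif1 (1.16). E6.5 endoderm against epiblast had 0 higher (against 3.79% of all genes) and 5 lower (7.04%, against 4.82%). Among these were Dut (-1.23), Nasp (-0.92), Tfdp2 (-1.70) and Rif1 (-0.91). Only Mcmbp (-1.36) was called between the E6.5 epiblast sets (1.41%, against 0.953% of all genes) and none in the streak comparison. Only Rif1 (1.62) was called in the test of the lineage difference (1.41%, against 3.93% of all genes).

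Of 36 mitosis genes, 10 rose (27.8%, against 8.05% of all genes) and 2 fell (5.56%, against 9.36%) in the E6.5 plate epiblast against E5.5 (Ube2c 1.32, Nusap1 1.77, Cenpe 1.38, Cenpf 1.06), in the comparison where 10 replication genes (23.8%) fell. The 36 genes summed to 4189 to 5644 CPM at E5.5, 5253 to 8125 on the plates and 4513 to 5688 in epiblast without plate name. By the fitted change, 25 of the 36 were lower without plate name than on the plates. From E3.5 to E4.5 epiblast, 4 rose (11.1%, against 13.6% of all genes) and 1 fell (2.78%, against 6.97%). Among them were Cenpf (2.14), Pttg1 (-2.54), Ttk (1.64) and Ube2c (0.87). From E3.5 to PrE, 6 rose (16.7%, against 13.6% of all genes) and 1 fell (2.78%, against 5.47%). Among these were Pttg1 (-2.79), Cenpf (1.58), Spc25 (1.56) and Ube2c (1.05). From E4.5 to E5.5 epiblast 0 rose (against 2.77% of all genes) and 2 fell (5.56%, against 3.4%), Pttg1 (-1.60) and Cenpf (-1.0). PrE against epiblast had none, where 5.68% of all genes were called. E6.5 endoderm had 4 lower than PrE (11.1%, against 7.23% of all genes), namely Aurka (-1.76), Espl1 (-2.82), Cdc20 (-1.76) and Plk1 (-1.88). It had 4 lower than epiblast (11.1%, against 4.82% of all genes), namely Cdca8 (-1.20), Bub1 (-1.26), Plk1 (-1.71) and Nusap1 (-1.38). In both, 0 were higher, against 4.45% and 3.79% of all genes. None was called between the E6.5 epiblast sets, in the streak comparison or in the test of the lineage difference.

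Compared per kb of transcript, Gmnn was the most abundant member at E3.5 (475 CPM per kb) and at E5.5 (359). Next came Rfc4 (215.2) and Rrm2 (207.2) at E3.5, and Rpa3 (299) and Orc6 (273) at E5.5. The lowest were the large polymerase epsilon subunit Pole at E3.5 (3.7) and Gins3 at E5.5 (6.9). For 8 members over 10% of exon bases also belonged to another annotated gene, up to 84.2% for Fen1 and 67.3% for Gins2, and whether counting used strand was not stated, so reads of these genes cannot be separated from those of their neighbours. They were Fen1, Gins2, Orc2, Rfc2, Rfc4, Mcm7, Orc1 and Rfc5, of which Rfc2 and Rfc5 were called.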

How the data were processed

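Single cells from wild-type embryos were amplified by SMART-seq2 (polyadenylated RNA, full length, no molecular identifiers). The authors trimmed the reads (Trim Galore 0.4.3) and aligned them to GRCm38 (HISAT2 2.0.5, from the submitters' processing notes). They then counted reads of mapping quality 20 or more over genes and deposited raw counts of the 721 cells that passed their filters (over 4000 genes and under 10% mitochondrial reads). The annotation release and the strand setting of the counting were not given in the sources used here. Gene positions came from the GENCODE annotation of the same build.

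Depth was 66896 to 3792936 counts per cell (median 692863). Cells were grouped by stage label and, at E4.5 and later, by consensus clustering into 8 clusters over all cells and 5 at E6.5, made without the 149 replication and mitosis genes and named from marker genes. No doublet caller was run, and wells titled as doublets were kept. Counts were summed per class and embryo with at least 3 cells, and 1 edgeR model (4.0.16, R 4.3.3, TMM normalization, quasi-likelihood test) was fitted to 9 groups of sums. P-values were adjusted by Benjamini-Hochberg over the 17105 genes kept by filterByExpr. Sums of 1 group came from separate embryos by their titles, save the pooled unnumbered sum, but shared plates. The test was also run on simulated counts with 200 changed genes.

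The members, lists and tests were chosen with earlier results of these data known. Each called member was named, with values per embryo for up to 4 in each direction with the smallest adjusted p, or for the 2 smallest p where none was called. Cdt1, Gmnn and Pcna were named throughout. Some genes of the further lists are counted but not reported here by name.

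Embryo numbers pair the classes because both classes came from the same embryo. As a check, the deviations of the paired sums from their group means were correlated over 6558 genes, with r of 0.061 to 0.23 at E4.5, 0.035 to 0.082 on the E6.5 plates and -0.017 to 0.086 in the embryos without plate name. Alternatives were DESeq2 (1.42.0), relative log expression scaling, no filter, a log2 fold limit of 1, at least 5 cells per sum, single wells, Ward classes, thinning to 200000 counts, fits to the groups compared, the embryo block and leaving out sums. Alternatives by plate and without 1 outlying sum were added after the data were seen. Each SE was the size of the fitted log2 change divided by the square root of the test's F statistic. It rests on a spread estimated over all groups in the fit, not only those compared. SEs and SDs cover embryos of this series only.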

Additional observations from a re-analysis of the deposited data

Results flagged for a closer look

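In the difference between endoderm and epiblast, Gmnn differed between E6.5 and E4.5 by 1.116 on the log2 scale in the test of that difference itself, a call that ended under several alternatives. Over 61 combinations of a called gene and a group, 6 had a sum far from the rest of its group, where chance marks about 1 in 20. The combinations share genes and embryos, and an excess over that rate was not tested. Mcm2 read 380.8 CPM in the E4.5 epiblast of plate P1 embryo 1, 682.4 CPM in E5.5 embryo 4 and 400.7 CPM in the E6.5 epiblast of plate P2 embryo 6, where 1 of 7 cells held 42.6% of its counts. Pcna read 493.9 CPM in the E4.5 epiblast of plate P1 embryo 2, with 52.5% of its counts in 1 of 4 cells. Orc3 read 1210.0 CPM in the E6.5 epiblast of plate P3 embryo 9, with 88.9% of its counts in 1 of 7 cells. Gmnn read 1002.0 CPM in the E3.5 sum of plate P8 embryo 2, with 49.1% of its counts in 1 of 3 cells.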

How the results depend on the processing

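Of the values of single called genes under the alternatives, 440 kept direction and side of the threshold, 1 reversed and the rest kept direction but were no longer called. Rrm2 in E6.5 against E5.5 epiblast read -0.2282 with the E6.5 sums without plate name. Leaving out 1 sum gave 6 to 8 called members in E4.5 epiblast against E3.5, 0 to 1 in E5.5 against E4.5 epiblast, 5 to 7 in PrE against E3.5, 0 to 3 in PrE against epiblast, 1 to 3 in E6.5 endoderm against PrE, 1 to 4 in E6.5 endoderm against epiblast, 0 in the streak comparison and between the E6.5 epiblast sets, and 0 to 1 in the test of the lineage difference. E6.5 plate against E5.5 epiblast, with over 5 sums in each group, was not run that way.

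The counts of called members that moved were as follows, and the causes were not tested unless fewer samples are the construction. In E4.5 epiblast against E3.5 (7 called) there were 4 with at least 5 cells per sum, 12 with plate P8 and 2 with plate P9 at E3.5, and 2 with plate P1 at E4.5. In E5.5 against E4.5 epiblast (0 called) there were 1 by DESeq2, 2 with single wells, 1 with at least 5 cells, 2 with Ward classes, 2 after thinning, 11 with the groups compared alone and 1 with plate P2 at E4.5. In E6.5 plate against E5.5 epiblast (13 called) there were 7 with a log2 fold limit of 1 and 0 with the sums without plate name. In PrE against E3.5 (7 called) there were 4 with plate P9 at E3.5 and 3 with plate P1 at E4.5. In PrE against epiblast at E4.5 (3 called) there were 5 by DESeq2, 6 with at least 5 cells, 0 with Ward classes, 8 with the groups compared alone, and 0 with plate P1 or P2 alone. In E6.5 endoderm against PrE (2 called) there were 6 by DESeq2, 1 with at least 5 cells and 4 after thinning. In E6.5 endoderm against epiblast (2 called) there were 1 with the fold limit, 1 with relative log expression scaling, 0 with the groups compared alone, 1 with the sums without plate name, 1 without plate P2 and 5 without plate P3. In the test of the lineage difference (1 called) there were 2 by DESeq2, and 0 with no filter, with Ward classes and with the groups compared alone. Over all genes, DESeq2 called 1524, not 1055, in E5.5 against E4.5 epiblast and 1787, not 972, in PrE against epiblast. It called 2882, not 1997, in E6.5 endoderm against PrE and 1286, not 673, in the lineage difference. For most other settings, and for the sums left out in turn, the count over all genes is not given here. A moved count is thus not shown to be particular to the members.

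With the embryo as a block, 8 members were called in PrE against epiblast at E4.5 and 0 in E6.5 endoderm against epiblast. The whole DESeq2 fit moved the median of all genes by -0.19 in E5.5 against E4.5 epiblast, 0.12 in E6.5 endoderm against PrE, 0.25 in E6.5 endoderm against epiblast and 0.37 in the lineage difference, and relative log expression scaling moved the last 2 by 0.13 each. By DESeq2 the share of calls in the higher direction was 52.8%, not 66.1%, in E4.5 epiblast against E3.5, 62.2%, not 44.9%, in E5.5 against E4.5 epiblast and 59.8%, not 71.3%, in PrE against E3.5. With log2(CPM + 10) the difference in the mean level of the members was -0.685 in E6.5 plate against E5.5 epiblast (-1.02 with a pseudocount of 1) and 0.635 between the E6.5 epiblast sets (1.12). The sums held 1476466 to 49484352 counts, and what depth limits was not tested.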
